A study of Mus musculus with 11 samples.

Results

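The comparison is of the neocortex of mice lacking Dicer in forebrain neurons with the neocortex of control mice. Its members are 6 of the 11 libraries of the series, chosen by the tissue and genotype in their labels, and it is described over the 16971 genes that passed a filter on low counts, of 39017 genes in the table. The knockouts carry the genotype Camk2a-Cre;Dicer flox/flox, in which the Cre recombinase is driven by the Camk2a promoter. Mice D5130, D5132 and D5133 gave the knockout libraries and mice D5129, D5134 and D5135 the control libraries. Gene levels are given for controls first and knockouts second, with the mice of each group in that order. Which alleles the controls carry, floxed Dicer or Cre among them, is not stated in the labels. All 6 animals were male and 13 to 14 weeks old, and each library came from 500 ng of total RNA of the neocortex of 1 mouse. The other 5 libraries are from hippocampal CA1 of 2 knockout and 3 control mice, 4 of which also gave a neocortex library. The fifth CA1 animal, control D5138, was female.

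Dicer is the ribonuclease that cuts precursor hairpins into mature microRNAs (miRNAs). A miRNA is loaded into an Argonaute protein, and its seed, bases 2 to 8, pairs with sites in the 3′ untranslated region (UTR) of messenger RNAs. Argonaute then recruits TNRC6 proteins and the CCR4-NOT deadenylase, which shorten the poly(A) tail and lower translation and mRNA level. The Camk2a promoter acts after birth and mainly in excitatory neurons of the forebrain, so interneurons, glia, endothelium and microglia of the same tissue are not its main targets. The excitatory neuron of the neocortex is known for dendritic spines rich in CaMKII, calcineurin and the calmodulin-binding protein neurogranin.

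The libraries held 43144097 to 58329441 reads assigned to genes, and levels are given as CPM, the count over the library size scaled within the tissue by the trimmed mean of M values. Bulk values do not tell fewer cells of a type from less RNA per cell. The spike-in RNAs split the libraries into sets of D5129, D5130 and D5132, and of D5133, D5134 and D5135, by the relative levels of 24 spike-ins. The share of reads from spike-ins ran from 0.113% to 0.686% and was highest in controls D5129 and D5135. Control D5134 stood apart in having Y-linked genes at 41.9% of the neocortex median. Scaling to the spike-ins moved the median gene by 1.06 on the log2 scale, and changes below are relative to the median gene. Before that shift was subtracted, 62 called genes among the 184 named genes fitted that way had the opposite sign, and after it none had. Relative to the median gene, 145 of the 184 results were weaker under that scaling and 39 the same. Markers that define neurons, excitatory neurons and interneurons were abundant in each library, with summed levels of 4917 to 5615, 1827 to 2082 and 1142 to 1248 CPM.

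Dicer1 itself was not lower at the level of the whole gene. Its level was 66.5, 59.3 and 62.4 CPM in controls and 63.3, 59 and 60.6 CPM in knockouts, a log2 change of -0.04 ± 0.062 (SE) with an edgeR adjusted p of 0.797. A count over the gene does not resolve the deleted exons, so it does not check the labels.

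In the knockout neocortex 256 genes were higher, 1.51% of those tested, and 204 were lower, 1.2% of those tested, at an adjusted p under 0.05 in edgeR's quasi-likelihood test. Both directions together made 2.71%. Changes were small. The median absolute log2 change was 0.37 among the higher and 0.31 among the lower genes. Over 1.5-fold, 53 genes rose and 20 fell, and over 2-fold, 23 rose and 4 fell. The groups did not overlap for any of the 460 genes, beside 11.6% of all tested genes that were higher, and 12.4% that were lower, in every knockout than in every control library. The genes that changed were more abundant than the rest, with a median of 53.6 CPM for the higher and 91.1 CPM for the lower genes against 17.1 CPM over all tested. The lists of homeostatic microglia, activated microglia, complement and antigen presentation, and interferon response held 19 of the 460 genes. These are short lists, with 15, 26, 25 and 23 tested genes, so their share of calls was above the 2.71% of all tested genes.

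The number of calls rested on single libraries. Without knockout D5133, 16 genes were higher and 3 lower, and 19 of the 460 remained. Without D5132 the counts were 100 and 44, without D5130 130 and 79, without control D5129 133 and 74, and without D5134 208 and 143. With the spike-in set as a term, 122 genes were higher and 69 lower. Whichever library was left out, 15 higher and 3 lower genes passed. Among the genes named here these were Ankrd52, Trak2, Lag3, Ccl6, Chrnb3, Dnmt3a, Phtf2, Srpr, Knop1, Tab2, Psd, Itpka and St6galnac6, and each other named call was lost without D5133.

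Dnmt3a and Phtf2 were among the genes with the smallest p-values. Dnmt3a, the de novo DNA methyltransferase that methylates CpG and CpA sites in maturing neurons, lies at chr12:3806007-3914443 (GRCm38). Dnmt3a had 114, 96.4 and 105 CPM in controls and 162, 183 and 188 CPM in knockouts. The lowest knockout library was above the highest control library, and Dnmt3a rose by 0.76 ± 0.072 (SE) on the log2 scale with an edgeR adjusted p of 0.00113. Phtf2, a membrane protein gene at chr5:20758663-20882045, had 22.7, 22.4 and 21.4 CPM against 33.1, 38.0 and 40.0 CPM. Its log2 change was 0.74 ± 0.080, and the knockout values lay well clear of 3 nearly equal controls.

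Tab2, an adaptor of the TAK1 kinase in inflammatory signalling, rose from 76.4 ± 3.35 CPM (SD, n = 3) to 109 ± 6.06 CPM, a log2 change of 0.51. Srpr, the receptor subunit through which signal peptides are docked at the endoplasmic reticulum, rose from 58.3 ± 2.04 to 83.8 ± 3.75 CPM. Knop1, a nucleolar protein gene, had 30.3, 29.1 and 30.8 CPM in controls and 43, 44.1 and 48.3 CPM in knockouts. Snrnp200, the helicase that unwinds U4 from U6 in the spliceosome, had 132, 136 and 136 CPM in controls and 171, 174 and 183 CPM in knockouts. Chrnb3, a subunit of nicotinic acetylcholine receptors, was scarce at 3.45, 4.28 and 3.96 CPM in controls and 7.61, 7.70 and 7.70 CPM in knockouts. Its log2 change was 0.98 ± 0.126 with an edgeR adjusted p of 0.00515, so this receptor subunit came near a 2-fold rise with almost no spread among the knockouts.

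Psd, at chr19:46312087-46327156, had the smallest p-value of the genes that fell. It encodes EFA6A, an exchange factor for the small GTPase ARF6 that is enriched in dendrites. Psd had 567, 579 and 531 CPM in controls and 420, 416 and 394 CPM in knockouts. The groups were far apart, and the log2 change was -0.45 ± 0.051 with an edgeR adjusted p of 0.00235. St6galnac6, a sialyltransferase that acts on gangliosides, went from 167 ± 3.66 to 125 ± 4.54 CPM. Hapln4, a link protein of perineuronal nets, went from 156 ± 7.97 to 115 ± 9.41 CPM. Gucy1a1, a subunit of the nitric oxide receptor guanylate cyclase, went from 104 ± 7.51 to 78.0 ± 1.69 CPM. Kifc2, a kinesin found in dendrites, had 716, 744 and 687 CPM in controls and 581, 549 and 558 CPM in knockouts.

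**Figure D1:**
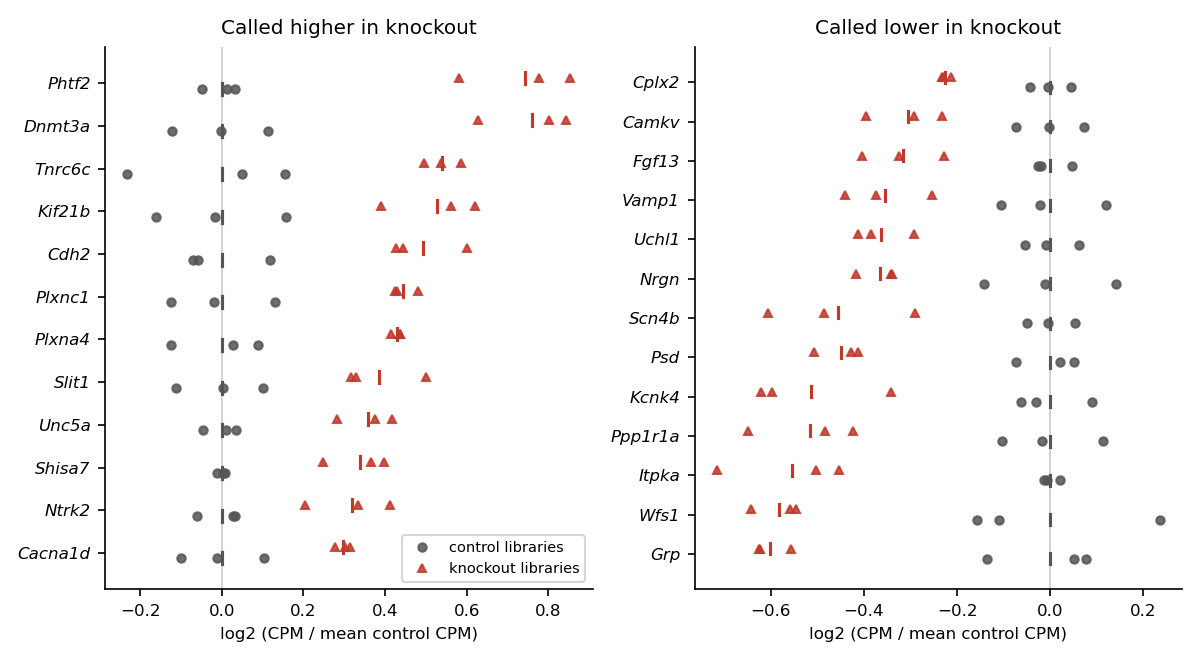
Level of 25 genes that changed, as log2 of CPM over the mean of the controls, 1 point for each library (3 control and 3 knockout mice) and a bar at the log2 of each group's mean. For each gene drawn the 3 knockout points lie on one side of the 3 control points, as for all 460 called genes.

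The mature miRNAs below are shown because their seeds were searched for in the UTRs. They represent abundant brain families, and the seed, bases 2 to 8, is in capitals (RefSeq entries on GRCm38 genes).
let-7a-5p: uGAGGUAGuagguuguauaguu
miR-9-5p: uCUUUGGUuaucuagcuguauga
miR-128-3p: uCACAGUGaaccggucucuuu
miR-29a-3p: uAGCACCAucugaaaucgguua
miR-26a-5p: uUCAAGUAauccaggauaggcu
miR-30a-5p: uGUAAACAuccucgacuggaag
miR-138-5p: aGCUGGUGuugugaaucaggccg
miR-181a-5p: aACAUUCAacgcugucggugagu
The other families searched were miR-125, miR-132, miR-101, miR-27, miR-137, miR-153 and miR-218, which makes 15. miR-124, a main neuronal miRNA, was not searched, so genes with no site for these families may hold one for it. A site was the 8-letter match to the seed followed by A, on the strand of the mRNA only. The miR-128 letters CACTGTGA and the miR-27 letters ACTGTGAA overlap, so 1 stretch can hold both.

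Genes whose UTR held sites for more brain families rose more often. Of 14668 genes with a UTR, 1.68% rose and 1.35% fell. Among 8334 genes with no site for any of the 15 families, 1.10% rose and 1.62% fell. The share that rose was 1.65% with sites for 1 family, 2.33% for 2, 4.56% for 3 or 4 and 11.8% for 5 or more, where 14 of 119 genes rose and 0 fell in edgeR's test. The share that fell went down over the same classes, from 1.62% to 1.248%, 0.737% and 0.556%. Over these classes the median UTR length also went from 701 to 5588 nt, so both moved together. In the middle of 3 equal classes of UTR length, 702 to 1854 nt, 1.09%, 1.69% and 1.75% rose with sites for 0, 1 and 2 or more families, and 1.83%, 1.15% and 0.698% fell. Without control D5134 the shares that rose over the 5 classes went from 0.936% with sites for no family to 1.72% for 2, 3.67% for 3 or 4 and 10.9% for 5 or more, where 0.840% fell. In that last class 5.04% rose without D5132, and without D5133 only 1 of 119, 0.840%, after 0.0480%, 0.136%, 0.0615% and 0.333% in the others.

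**Figure D2:**
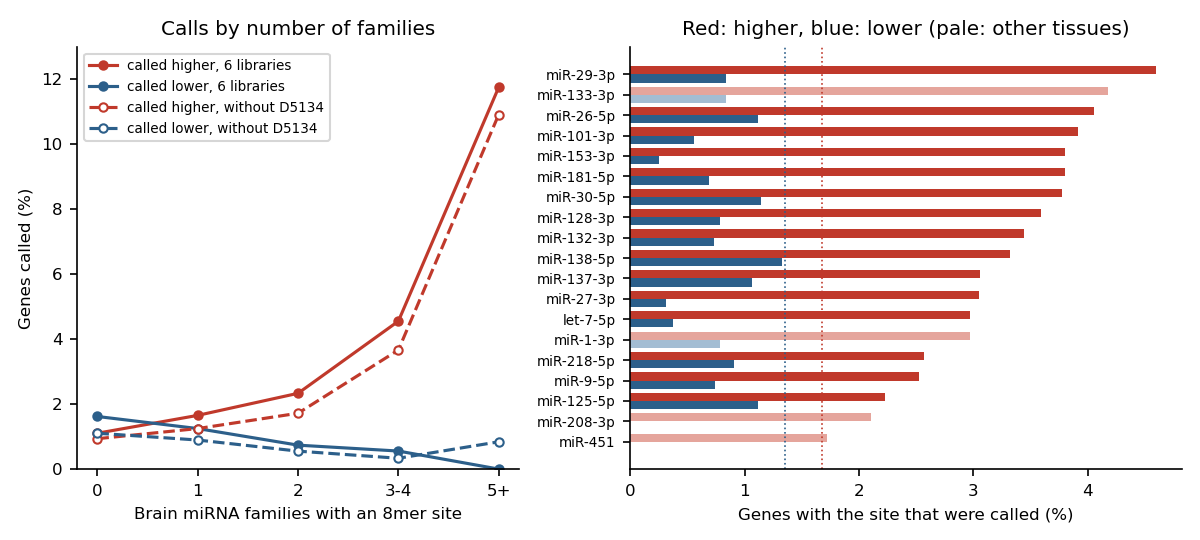
Left, percent of 14668 genes called higher (red) or lower (blue) in the knockout neocortex by the number of brain miRNA families with an 8-letter seed site in the 3′ UTR, with all 6 libraries (solid) and without D5134 (dashed); right, the same shares for each family, pale for families of other tissues, with dotted lines at all genes. The share called higher climbs from 1.10% to 11.8%, and miR-133 and miR-1 lie among the brain families.

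The share that rose ranged from 2.23% to 4.59% over the 15 families, and differences between families were not tested. miR-29 had the highest share among the brain families, with 4.59% of its 479 site-bearing genes higher, followed by miR-26 with 4.06%, miR-101 with 3.91%, miR-181 and miR-153 with 3.80% each and miR-30 with 3.77%. miR-125, miR-9 and miR-218 were lowest, with 2.23%, 2.52% and 2.57%. Families best known from muscle or blood gave 4.18% for miR-133, 2.97% for miR-1 and miR-206, 2.11% for miR-208 and 1.72% for miR-451, the last of only 58 genes. So the shares of miR-133 and of miR-1 and miR-206 were inside the range of the brain families, and those of miR-208 and miR-451 were under it. These shares are descriptions over genes that differ in UTR length. In the middle class of UTR length 1.35% of all genes rose, and miR-132 had the highest share of the brain families, 3.81%. Then came miR-29, miR-26 and miR-181 with 3.64%, 3.55% and 3.07%, each on 4 to 7 genes. There let-7, miR-9, miR-125, miR-27, miR-137 and miR-153 had smaller shares than genes without their site, each on 1 or 2 genes. The other brain families lay above genes without theirs.

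Among the genes named by the smallest p, the largest change or the highest level, 18 of 28 that rose had a site for a brain family. Of those that fell 14 of 31 had one, and the median UTR lengths were 2087 and 1069 nt. Over all 14668 genes with a UTR, 8334 had no such site, at a median length of all UTRs of 1189 nt. So the share among the genes that fell was near that of all genes, and those that rose had longer UTRs. The Dnmt3a UTR, of 6696 nt, held 6 brain sites, of which 2 match miR-29 and lie close together. They are shown with the site in capitals, beside the miR-30 site of Phtf2 and the miR-138 site of Psd, a gene that fell.
Dnmt3a, miR-29, chr12:3911391-3911412, plus strand: ccaggggaggtagcTGGTGCTA
Dnmt3a, miR-29, chr12:3911460-3911481, plus strand: gcggggtcccaagcTGGTGCTA
Phtf2, miR-30, chr5:20760941-20760962, minus strand: tactgggaaagaagTGTTTACA
Psd, miR-138, chr19:46312312-46312333, minus strand: ccacctcacccttaCACCAGCA
The capitals of the 2 miR-29 sites are the same letters, which pair with bases 2 to 8 of miR-29a and end in A. Camk2n1, which fell, held 5 brain sites, so sites were present in genes of both directions. A match is a run of letters and not a measured site.

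Genes reported elsewhere as miRNA targets changed in small numbers, mostly upward. Of 24 measured miR-124 targets, 2 rose, the adhesion receptor Itgb1 by 0.40 and the vesicle protein Vamp3 by 0.30 on the log2 scale. Of 30 let-7 targets, 2 rose, the activin receptor Acvr1c by 0.44 and the GTPase Nras by 0.28. Of 20 miR-128 targets, Szrd1 rose by 0.33, and of 29 miR-29 targets 3 rose, among them Lpl, the lipoprotein lipase, by 0.50. Of 18 miR-9 and 19 miR-132 and miR-212 targets none passed edgeR's test, with 5 and 2 at an unadjusted p under 0.05 and 1 of each list called by DESeq2. Vamp1, listed as a target of miR-138 or miR-134, fell by 0.35. Positive log2 changes were seen for 18 of 24 miR-124 and 20 of 30 let-7 targets, beside 50.6% of all genes, and for 14 and 15 without D5134.

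Some of the genes that carry out miRNA silencing rose. Of 18 genes of the miRNA pathway, 5 were higher and 0 lower in edgeR's test. The 3 scaffold proteins that join Argonaute to the deadenylase all rose: Tnrc6a by 0.42 ± 0.059, Tnrc6b by 0.47 ± 0.075 and Tnrc6c by 0.54 ± 0.085 on the log2 scale. Tnrc6c had 91.9, 75.7 and 98.8 CPM in controls and 125, 129 and 133 CPM in knockouts, with no overlap. Ago1 rose by 0.34, and Ago2, named to complete the 5 after its values were seen, also passed. Downstream, 3 of 37 genes of deadenylation and decapping rose. They were the deadenylase subunits Cnot6l, with 61.2, 49.7 and 57.8 against 74.3, 75.4 and 80.0 CPM, and Cnot6, with 67.6, 59.7 and 65.0 against 80.0, 80.3 and 86.7 CPM, and the translational repressor Gigyf1, by 0.28. In the cycle that phosphorylates and dephosphorylates Argonaute, Ppp6r1 rose by 0.24 beside Ankrd52, its partner in the phosphatase. With the spike-in set as a term, 3 of the 18 and 2 of the 37 passed.

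Chromatin genes moved upward as a list, with few single calls. Of 24 genes of DNA methylation, 2 rose, Dnmt3a and Tet1, the enzyme that oxidises methylcytosine, from 10.5 ± 0.721 to 16.3 ± 2.52 CPM. Of 50 histone methylation genes, 2 rose and 1 fell: the methyltransferase Setd7 by 0.32 and the demethylase Kdm5c by 0.30, and the H3K9 methyltransferase Ehmt2 by -0.23. Their median log2 change was 0.14, and 42 of 50 were positive, beside a median of 0.002 and 50.6% positive over all genes. Without D5134 the median was 0.083 with 37 positive. Chd2, a chromatin remodeller, rose by 0.26 and Kat6b, a histone acetyltransferase, by 0.32, which are 2 of 58 genes of remodelling and acetylation. Members of these lists have long exons in sum, a median of 8.54 kb for histone methylation against 4.11 kb over all genes.

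Some general neuronal markers fell. Over 5 lists of neuronal identity, edgeR called 4 of 104 genes lower and 0 higher, and DESeq2 12 and 2. Of 18 pan-neuronal genes, 3 fell and 0 rose in edgeR's test: the ubiquitin hydrolase Uchl1, the tubulin-binding stathmin Stmn2 and the surface protein Thy1. Uchl1 had 570, 618 and 588 CPM in controls and 483, 454 and 445 CPM in knockouts. All 3 knockouts were lower, and the log2 change was -0.36 ± 0.052 with an edgeR adjusted p of 0.00602. The summed level of 8 defining neuronal markers was 5288 to 5615 CPM in controls and 4917 to 5137 CPM in knockouts, without overlap. Of 20 excitatory genes, 1 fell, the calcium sensor Hpca by -0.26.

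None of 15 upper layer, 25 deep layer or 26 interneuron genes passed edgeR's test, with 7, 5 and 4 at an unadjusted p under 0.05, and DESeq2 called 3, 1 and 1. The upper layer markers summed to 772.6 to 791.9 CPM in controls and 639.3 to 701 CPM in knockouts. Of these 4, Lamp5 and Rasgrf2 had log2 changes of -0.39 and -0.21 and Cux2 and Rorb of -0.03 and -0.01, and the 15 genes had a median of -0.01 with 6 positive. The deep layer ranges, 155.3 to 169 CPM in controls and 152.3 to 172.6 CPM in knockouts, overlapped. Interneuron markers summed to 1142 to 1162 CPM in controls and 1200 to 1248 CPM in knockouts, the opposite side to the excitatory markers at 2001 to 2082 and 1827 to 1942 CPM. Of the 26 interneuron genes 22 had a positive log2 change, and 18 without D5134. Cck, a peptide of a class of interneurons that excitatory cells also express, was an exception at a log2 change of -0.29 with an edgeR adjusted p of 0.0527. These sums were not tested.

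**Figure D3:**
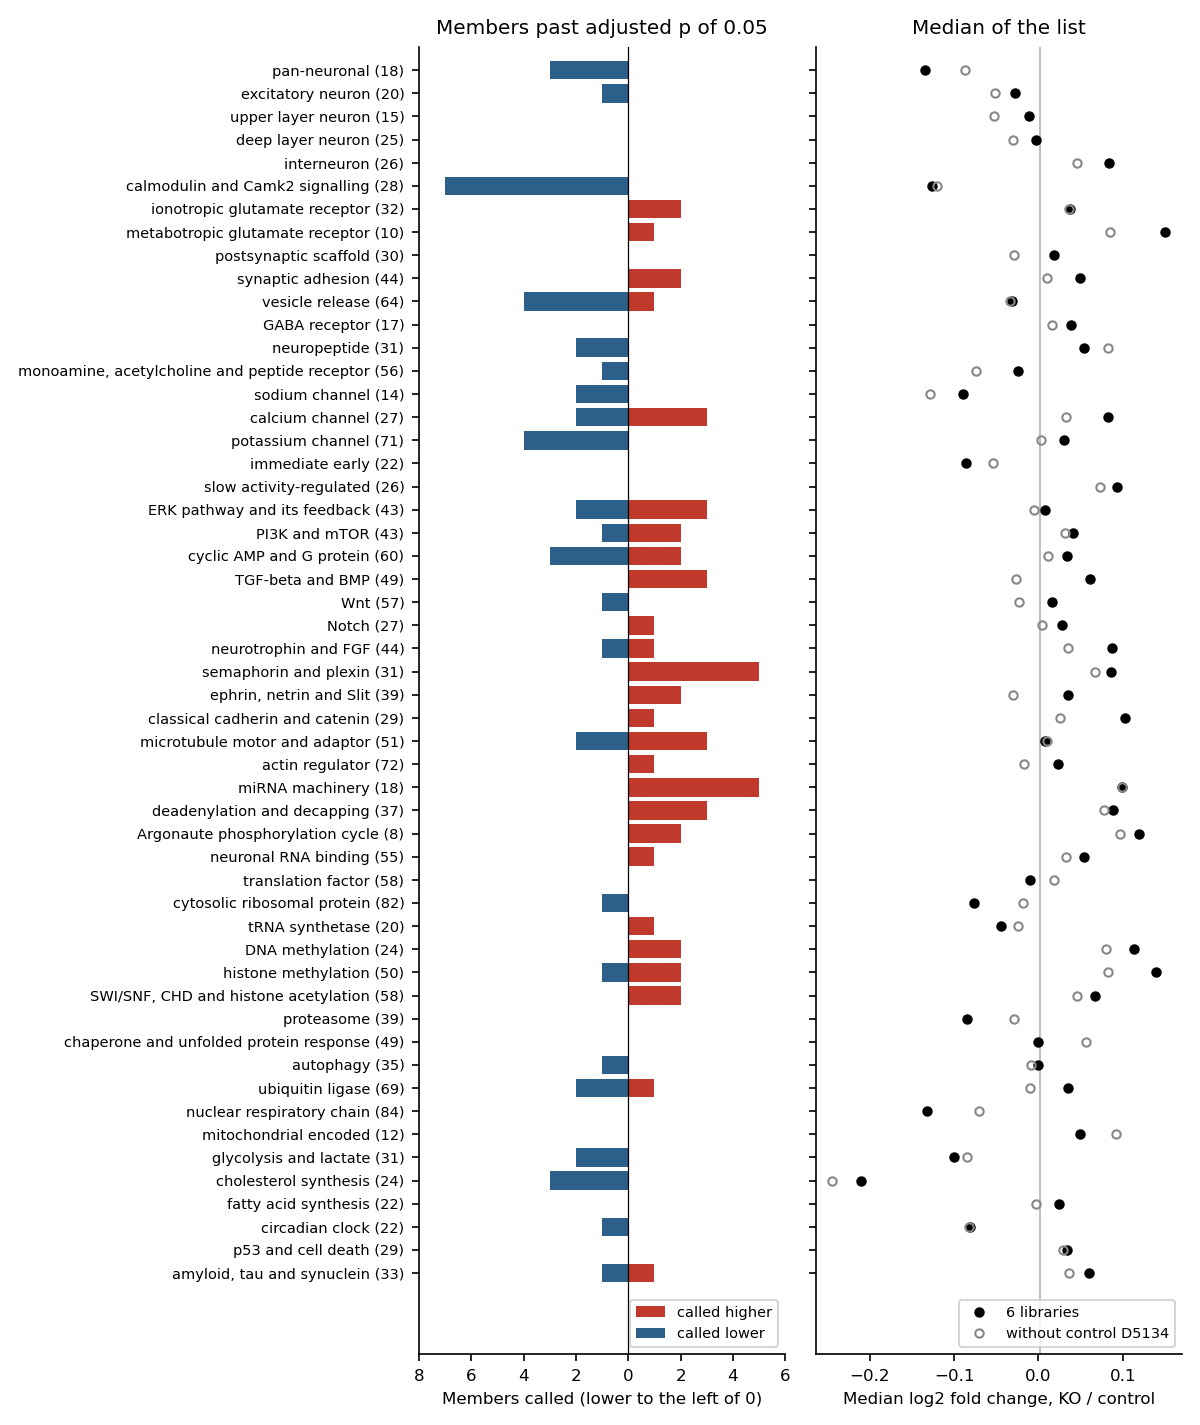
Left, number of genes called higher (red) and lower (blue) in the knockout neocortex in each gene list, with the number tested in brackets; right, the median log2 change of each list with 6 libraries (filled) and without D5134 (open). Calmodulin and Camk2 signalling has 7 lower and 0 higher genes, semaphorins and plexins 5 higher and 0 lower, and most lists hold 0 to 3 calls.

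The list with the most genes that fell was calcium-calmodulin signalling. Of its 28 measured genes 7 fell and 0 rose in edgeR's test, and 5 had a positive log2 change, with a median of -0.13. Itpka, the kinase that binds F-actin in spines and makes IP4, fell from 131 ± 1.67 to 89.3 ± 8.39 CPM, and its call stood whichever library was left out. Nrgn, neurogranin, which binds calmodulin at low calcium, had 1599, 1777 and 1461 CPM in controls and 1274, 1273 and 1208 CPM in knockouts. Its knockout levels were close together and under each control, with a log2 change of -0.37 ± 0.065 and an edgeR adjusted p of 0.0151. Camk2n1, an inhibitor of CaMKII, was among the most abundant genes to fall, with 3508, 3733 and 3149 CPM against 2741, 2981 and 2487 CPM, a log2 change of -0.34. Camkv, a CaM kinase-like vesicle protein, fell by 0.30, and Ppp3r1, the regulatory subunit of calcineurin, by 0.23 on the log2 scale. So a kinase inhibitor and a phosphatase subunit fell along with calmodulin-binding proteins. The list kept 1 call without D5133, 2 without D5132, 3 without D5130 or D5129, 4 without D5134 and 4 with the spike-in set as a term. Its median stayed near the same size without D5134, at -0.12.

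Ddn, Ncdn and Prkar1b were among the most abundant genes that fell. Ddn, dendrin, a postsynaptic protein whose mRNA is found in dendrites, had 1117, 1088 and 1206 CPM in controls and 912, 944 and 854 CPM in knockouts, a log2 change of -0.33 ± 0.055. Ncdn, neurochondrin, fell from 1498 ± 35.2 to 1244 ± 64.2 CPM. Prkar1b, the neuronal regulatory subunit of protein kinase A, fell from 1123 ± 37.0 to 907 ± 35.3 CPM. Of 30 postsynaptic scaffold genes none passed edgeR's test, with 6 at an unadjusted p under 0.05 and 0 called by DESeq2. The smallest p of that list was that of Ppp1r9b, spinophilin, at 1131, 1174 and 1068 against 993, 1036 and 994 CPM with an edgeR adjusted p of 0.115.

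Glutamate receptor genes gave 3 calls, each upward, 2 of them for auxiliary subunits. Shisa7, a transmembrane protein associated with AMPA and GABA-A receptors, had 190, 190 and 188 CPM in controls and 225, 244 and 249 CPM in knockouts. The log2 change was 0.34 ± 0.052 with an edgeR adjusted p of 0.00784. Shisa6, an AMPA receptor partner, rose by 0.38, and Grm2, the presynaptic metabotropic receptor mGlu2, went from 62.0 ± 1.67 to 74.8 ± 1.86 CPM. They stood among 32 ionotropic and 10 metabotropic genes with 0 lower. None of the 17 GABA receptor genes passed edgeR's test, with 3 at an unadjusted p under 0.05 and 1 called by DESeq2. Of 44 synaptic adhesion genes 2 rose: Cadm1, an adhesion molecule of the synaptic cleft, by 0.21, and Ptprs, a receptor phosphatase that organises presynaptic terminals, by 0.19.

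On the presynaptic side 4 of 64 vesicle release genes fell and 1 rose. Sytl2, a Rab27 effector, had 105, 95.7 and 107 CPM in controls and 79.7, 69.8 and 75.1 CPM in knockouts, a log2 change of -0.46 ± 0.065 with an edgeR adjusted p of 0.00605. Vamp1, the vesicle SNARE synaptobrevin 1, fell by 0.35, and the related Sytl1 by 0.69. Cplx2, complexin 2, which clamps and promotes SNARE fusion, had 1376, 1294 and 1329 CPM against 1135, 1150 and 1136 CPM. The 3 knockouts were nearly equal and lay under each control. Ppfia4, a liprin of the active zone, rose by 0.25. Sept5, a septin bound to synaptic vesicles, fell from 1069 ± 87.1 to 855 ± 15.1 CPM. Among neuropeptides 2 of 31 fell, Penk and Grp, gastrin-releasing peptide, the latter from 6.91 ± 0.543 to 4.55 ± 0.125 CPM. Of 56 receptors for monoamines, acetylcholine and peptides 1 fell, the adrenergic receptor Adra2c by 0.42.

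Ion channel calls went down for sodium and potassium channels and in both directions for calcium channels. Scn4b, the auxiliary sodium channel subunit of resurgent current, had 135, 145 and 139 CPM in controls and 114, 91.7 and 99.6 CPM in knockouts. It fell by 0.45 ± 0.073 on the log2 scale with an edgeR adjusted p of 0.00978. Fgf13, an intracellular partner of sodium channels, fell by 0.32. These were 2 of 14 sodium channel genes, and neither is a pore subunit. Of 71 potassium channel genes 4 fell: the leak channel Kcnk4, also known as TRAAK, by 0.51, the Kv4 partner Kcnip4 by 0.35, the M-current subunit Kcnq5 by 0.23 and the Kv1 beta subunit Kcnab2 by 0.23. The potassium list as a whole did not lean down, with 41 of 71 positive and a median of 0.03, and 37 and 0.003 without D5134. Of the 14 sodium channel genes 5 were positive, with a median of -0.09.

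Of 27 calcium channel genes 3 rose and 2 fell. Positive log2 changes were found for 21 of the 27, with a median of 0.08, and for 18 with 0.03 without D5134. The 3 genes that rose were pore subunits: the L-type Cacna1d by 0.30, the T-type Cacna1g by 0.26 and the P/Q-type Cacna1a by 0.23. No other pore subunit was called. Cacna1d had 56.1, 52.8 and 60.7 CPM in controls and 69.7, 70.3 and 68.5 CPM in knockouts, with no overlap. The beta subunit Cacnb3 fell from 367 ± 15.4 to 308 ± 11.8 CPM, and the release channel Ryr1 from 15.7 ± 0.731 to 11.6 ± 0.223 CPM. None of these channel calls stood without D5133, and with the spike-in set as a term both sodium channel calls, 1 potassium and 0 calcium channel calls stood.

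Signalling pathways changed at single steps. In the ERK pathway 3 of 43 genes rose and 2 fell. Rasal2, a GTPase-activating protein that turns Ras off, had 106, 106 and 105 CPM in controls and 133, 128 and 138 CPM in knockouts, a log2 change of 0.33 ± 0.050 with an edgeR adjusted p of 0.00784. Nras, one of the Ras GTPases, rose by 0.28. Further down, Map2k1, the kinase MEK1, fell from 265 ± 7.12 to 215 ± 8.21 CPM, and the GTPase Hras, named after its values were seen, also fell. So paralogs and successive steps of one cascade moved in opposite directions. Of 43 PI3K and mTOR genes 2 rose and 1 fell. Akt1 fell from 195 ± 6.26 to 168 ± 1.99 CPM, and the insulin receptor substrate Irs1 rose by 0.38.

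In cyclic AMP signalling 2 of 60 genes rose and 3 fell. The phosphatase inhibitors controlled by protein kinase A both fell. Ppp1r1a had 84.5, 98.3 and 89.7 CPM in controls and 67.7, 57.9 and 65.0 CPM in knockouts, a log2 change of -0.51 ± 0.073 with an edgeR adjusted p of 0.00602, and Ppp1r1b, DARPP-32, fell by 0.28. The adenylate cyclase Adcy7 rose by 0.53 and the CREB coactivator Crtc3 by 0.37. Of 22 immediate early and 26 slower activity-regulated genes none passed edgeR's test, with 1 and 0 at an unadjusted p under 0.05, and DESeq2 called 1 and 0. The summed immediate early level was low in knockout D5133, at 1461 CPM against 2385 to 2799 CPM in the other 5 libraries, and the list's median log2 change was -0.09 with it and 0.17 without it.

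Of 44 neurotrophin and FGF genes 1 rose and 1 fell, Ntrk2 and Fgf13. Ntrk2, the BDNF receptor TrkB, had 729, 727 and 683 CPM in controls and 898, 822 and 949 CPM in knockouts. It rose by 0.32 ± 0.058 with an edgeR adjusted p of 0.0151, and its 3 knockout values were spread over a wider range than the controls. Of 49 TGF-beta and BMP genes 3 rose, 6.12% beside 1.51% of all genes, among them Acvr1c, from 26.4 ± 1.62 to 35.9 ± 2.48 CPM, and the BMP antagonist Chrd, by 0.27. Of the 57 Wnt genes in the list 0 rose and 1 fell, the secreted antagonist Frzb. Wnt1, which is not in that list, was called higher at an edgeR adjusted p of 0.0436, on the few reads given further down. The median of the TGF-beta list changed sign without D5134, from 0.06 to -0.03, and that of the Wnt list from 0.02 to -0.02.

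Plexins are the receptors through which semaphorins steer axons and prune spines. Of 31 semaphorin, plexin and neuropilin genes 5 rose and 0 fell in edgeR's test, and the 5 were plexins. Plxna4 had 78.2, 70.3 and 81.5 CPM in controls and 104, 102 and 104 CPM in knockouts, a log2 change of 0.43 ± 0.061 with an edgeR adjusted p of 0.00602. Plxnc1 had 68.5, 57.3 and 61.7 CPM against 84.1, 83.9 and 87.3 CPM, a change of 0.44 ± 0.067. The knockouts were nearly equal in both genes and well above each control. Plxna1 rose by 0.36, Plxna2 by 0.29 and Plxna3, named to complete the 5 after its values were seen, by 0.29. The list kept 3 calls without D5130, D5132 or D5134 or with the spike-in set as a term, and 0 without D5133.

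Other guidance and adhesion genes that passed were also higher. Slit1, a repulsive ligand, had 56.1, 60.8 and 65.0 CPM in controls and 76.2, 75.5 and 85.7 CPM in knockouts, and Unc5a, a netrin receptor, rose from 112 ± 3.15 to 143 ± 6.74 CPM. They were 2 of 39 ephrin, netrin and Slit genes. Cdh2, N-cadherin, the classical cadherin of excitatory synapses, had 71.6, 70.9 and 80.8 CPM against 101, 100 and 113 CPM, a log2 change of 0.49 ± 0.068 with an edgeR adjusted p of 0.00602. It was 1 of 29 cadherins and catenins. Of 51 genes of microtubule transport 3 rose and 2 fell. Next to Trak2, the mitochondrial adaptor of kinesin, the kinesin Kif21b rose from 170 ± 18.8 to 245 ± 19.9 CPM and the dynein heavy chain Dync1h1 from 674 ± 6.54 to 766 ± 14.8 CPM, while the kinesin adaptor Hap1 fell by 0.25 and Kif9 by 0.62. Arhgef7, the exchange factor beta-PIX of spines, was the single call among 72 regulators of the actin cytoskeleton, at 0.33 higher.

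Nuclear-encoded genes of the respiratory chain lay slightly lower, with no single call in edgeR's test. Of 84 nuclear-encoded genes of the respiratory chain none passed edgeR's test, yet 33 had an unadjusted p under 0.05 and DESeq2 called 7 lower. Of the 84, 33 were lower in every knockout than in every control library, beside 12.4% of all tested genes. Only 10 of the 84 had a positive log2 change, beside 50.6% of all genes, and the median was -0.13. Without control D5134 these were 22 of 84 and -0.07. Cox6a1, a subunit of complex IV, was nearest to the threshold, at 277, 303 and 253 CPM in controls and 230, 234 and 235 CPM in knockouts with an edgeR adjusted p of 0.0507. The 12 genes encoded in mitochondrial DNA had a median of 0.05, 0 calls, 1 unadjusted p under 0.05 and 0 calls by DESeq2.

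Among 39 proteasome genes 3 had a positive change, with a median of -0.08, and without D5134 10 did with a median of -0.03. With all 6 libraries the other protein-turnover lists were balanced or leaned upward, with 41 of 69 ubiquitin ligase, 17 of 35 autophagy and 24 of 49 chaperone genes positive. Without D5134 these were 32, 16 and 32, and the ubiquitin ligase median was -0.01, so the ligases no longer leaned upward. Cytosolic ribosomal protein genes behaved like those of the proteasome, with 10 of 82 positive and a median of -0.08, against 37 of 82 and -0.02 without D5134. Of these 1 fell, Rpl22l1, a paralog of Rpl22, by 0.32. Tpi1, triose phosphate isomerase, fell from 648 ± 42.3 to 543 ± 25.3 CPM and was 1 of 2 of 31 glycolysis genes that fell. Fdft1, squalene synthase, fell by 0.27 as the least changed of 3 of 24 cholesterol synthesis genes. That list's median was -0.21, and -0.24 without D5134. The autophagy protein Map1lc3a, LC3A, fell from 193 ± 12.2 to 157 ± 6.96 CPM. Fbxl16, an F-box protein abundant in neurons, had 1060, 1033 and 1079 CPM in controls and 860, 789 and 843 CPM in knockouts, a log2 change of -0.35 ± 0.049 with an edgeR adjusted p of 0.00602. The E3 ligase Ubr2 rose by 0.24.

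Genes linked to amyloid and synuclein moved both ways. Sorl1, the sorting receptor of the amyloid precursor, had 435, 417 and 409 CPM in controls and 504, 616 and 498 CPM in knockouts, with D5132 high among the knockouts. Its log2 change was 0.36 ± 0.076 with an edgeR adjusted p of 0.0365. Lrp1, an endocytic receptor for apolipoprotein E, rose from 516 ± 23.3 to 614 ± 27.6 CPM. Sncb, beta-synuclein, fell from 510 ± 14.5 to 430 ± 26.5 CPM. Of 29 genes of the p53 pathway and cell death none passed edgeR's test, with 4 at an unadjusted p under 0.05 and 0 called by DESeq2.

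Direction went with the length of the gene's exons. In 5 classes of 3343 genes each by summed exon length, the share that rose was 0.538%, 0.658%, 0.987%, 2.09% and 3.32% from shortest to longest. The share that fell was 1.71%, 1.65%, 1.47%, 0.688% and 0.568%. A positive log2 change was found for 39.3% of the shortest and 68.3% of the longest class. Control D5134 moved with this trend. Its longest class minus its shortest was -0.209 on the log2 scale, as a median deviation from the mean of all libraries, while D5129 and D5135 were at -0.00284 and 0.00124 and knockouts D5130, D5132 and D5133 were at 0.0638, 0.0301 and 0.0935. Without D5134 the shares that rose were 0.568%, 0.598%, 1.02%, 1.74% and 2.21%, those that fell 0.778%, 0.987%, 1.17%, 0.628% and 0.658%, and positive changes ran from 45.0% to 58.5%. Respiratory chain, ribosomal and proteasome genes have short exons in sum, with medians of 1.58, 1.78 and 2.82 kb. The lists of semaphorins and plexins, miRNA machinery and histone methylation have medians of 7.72, 8.87 and 8.54 kb.

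**Figure D4:**
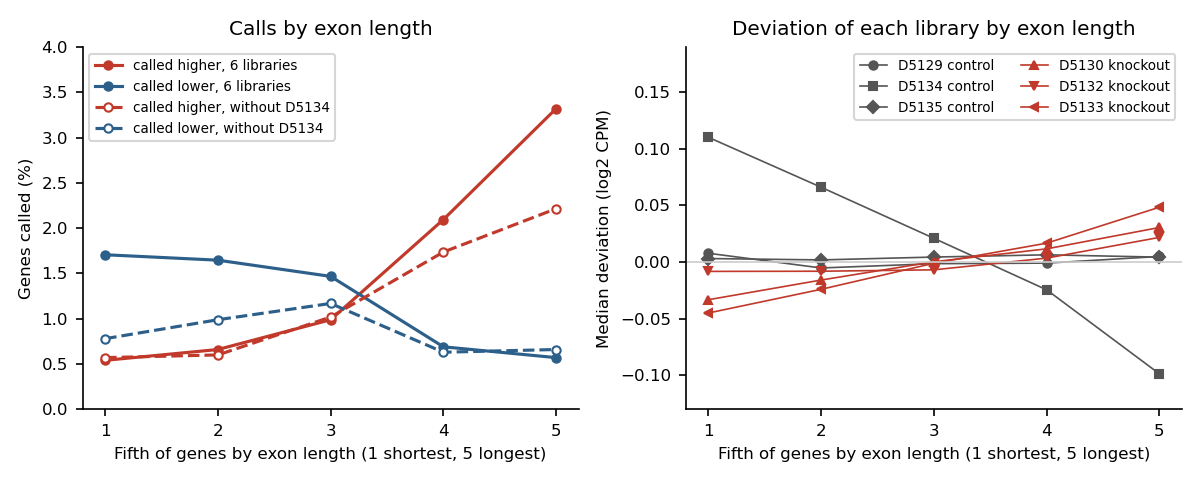
Left, percent of genes called higher and lower in the knockout neocortex by class of summed exon length (3343 genes each), with and without D5134; right, the median log2 deviation of each library from the mean of all 6. The share called higher rises from 0.538% to 3.32%, and control D5134 is the library whose longest genes lie lowest.

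Markers of other cells give the setting of these values. Of 26 activated microglia genes 14 rose, such as the lysosomal Cd68 from 9.42 ± 0.830 to 15.5 ± 1.78 CPM, while 3 defining microglia markers summed to 117.2 to 132.8 CPM in controls and 107.8 to 117.9 CPM in knockouts. None of the 18 astrocyte genes passed edgeR's test, with 3 at an unadjusted p under 0.05 and 1 called by DESeq2, and 17 were positive with a median of 0.09. Gfap, the intermediate filament of reactive astrocytes, had 98.2, 106 and 128 CPM in controls and 173, 232 and 258 CPM in knockouts. The groups did not overlap, yet the edgeR adjusted p was 0.062 at a log2 change of 0.99 ± 0.181. No gene of the oligodendrocyte, precursor, endothelial or meningeal lists passed edgeR's test or DESeq2, with 2, 3, 1 and 0 at an unadjusted p under 0.05.

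Markers of neighbouring regions were called in 2 of 3 lists. Of 15 striatal genes 3 fell, Penk and Ppp1r1b among them, and 4 defining striatal markers summed to 58.93 to 79.96 CPM in controls and 48.84 to 51.26 CPM in knockouts. Control D5135 was highest, and without it the median log2 change of the 15 genes turned from -0.25, with 3 positive, to 0.04, with 8 positive. Of 12 hippocampal genes 1 fell, Wfs1, an endoplasmic reticulum protein, from 112 ± 17.3 to 74.8 ± 2.69 CPM. The list's median was 0.09 with 8 positive, and the other 2 defining markers, Prox1 and Zbtb20, had changes of 0.12 and 0.07. So the lower sum of the 3 markers, 115.4 to 150.5 CPM in controls and 90.37 to 94.48 CPM in knockouts, lay in Wfs1. Thalamic markers overlapped between the groups. The part of dissection in the striatal and hippocampal values was not tested, and these genes are also expressed in cortical neurons.

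The same mice allow the neocortex to be set beside CA1. In CA1, 452 of 18274 genes were higher and 258 lower, 2.47% and 1.41% of those tested and 3.89% together. A test of the difference between the tissues over all 11 libraries called 18 of 19256 genes, 0.0935%, of which 7 were more positive in the neocortex (0.0364%) and 11 in CA1 (0.0571%), and 1831 had an unadjusted p under 0.05. The libraries of the tissues were made with different kits and share 4 animals. With the animal as a block 114 genes were called, of which 78 were more positive in the neocortex and 36 in CA1, so that the balance turned, and leaving out 1 library at a time gave 1 to 31. The count was 1 without CA1 knockout D5130 or without neocortex libraries D5132, D5133 or D5129, 3 without the female CA1 control D5138, and 31 without CA1 control D5134.

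Rasgrp1, an activator of Ras driven by calcium and diacylglycerol, was at 579, 554 and 524 CPM in neocortex controls and 585, 561 and 583 CPM in knockouts. In CA1 the 3 controls were at 763, 805 and 838 CPM, and knockouts D5130 and D5133 at 540 and 570 CPM. The neocortex groups overlapped and the CA1 groups were far apart, with log2 changes of 0.06 and -0.53 and an edgeR adjusted p of the difference of 0.0144. Arap2, a GTPase-activating protein for ARF6, was likewise higher in CA1 controls than in CA1 knockouts, with log2 changes of 0.11 in the neocortex, where each knockout was slightly above each control, and -0.36 in CA1. Plxna4 rose in the neocortex, and in CA1 it had 181, 189 and 195 CPM in controls and 163 and 184 CPM in knockouts. Its difference of 0.55 had an edgeR adjusted p of 0.0313, and of 0.0134 with the animal as a block.

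Hap1 fell in the neocortex, from 104 ± 6.53 to 87.6 ± 2.87 CPM, and rose in CA1, from 165 to 187 CPM in controls to 239 and 209 CPM in knockouts. Igfbp2, a binding protein of insulin-like growth factors, and Lamb2, a laminin chain of basement membranes, had neocortex changes of -0.14 and -0.02 with overlapping groups, and rose in CA1 by 0.91 and 0.54. Trh, the precursor of thyrotropin-releasing hormone, had 1.18 to 1.36 CPM in neocortex controls and 1.17 to 1.59 CPM in knockouts, but in CA1 0.151 to 0.370 against 1.79 and 1.96 CPM.

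**Figure D5:**
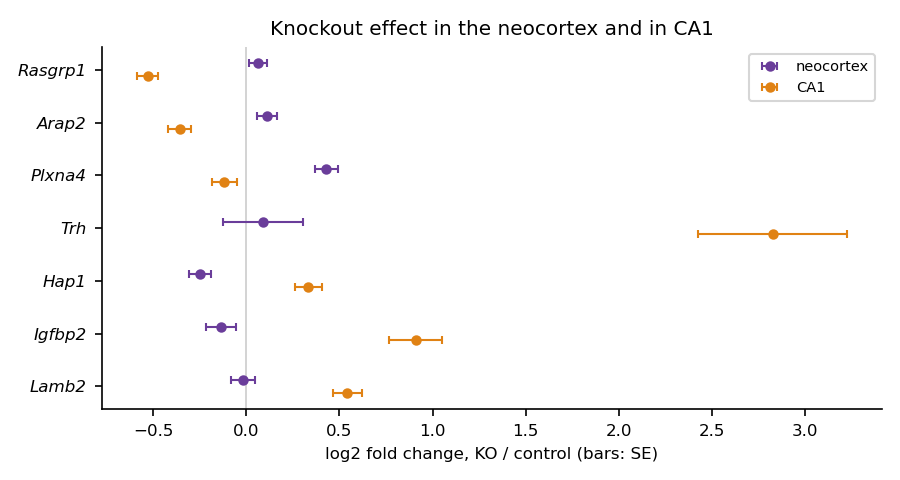
Log2 change (points) and standard error (bars) in the knockout neocortex and in CA1 for 7 genes whose change differed between the tissues. Rasgrp1, Arap2 and Plxna4 are more positive in the neocortex, and Trh, Hap1, Igfbp2 and Lamb2 in CA1.

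Near the threshold, the called genes with the largest p were Slc15a3, Ska2 and Wdr90 among the higher, with adjusted p of 0.0495, 0.0494 and 0.0494 in edgeR, and Drc1, Crybb1 and Cpne4 among the lower. Just outside were Traf3, Leng8 and Apoe, with edgeR adjusted p of 0.0506, 0.0507 and 0.0508, and Catsperz, Akr1a1 and Cox6a1. Apoe, the main brain apolipoprotein, had 1069, 1192 and 1026 CPM in controls and 1234, 1313 and 1416 CPM in knockouts, so the uncalled side of the threshold holds genes whose groups do not overlap.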

How the data were processed

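Poly(A) RNA was sequenced from the neocortex (3 knockout and 3 control mice) and CA1 (2 and 3). The authors deposited a table of raw read counts per gene. The tools named are GSNAP, bedtools, SAMtools and FastQC and the build GRCm38, per the submitters' processing notes. Their roles, versions and the strand setting of the counting are not given in the sources used here, so reads of overlapping or antisense genes and near-identical copies may be shared. Neocortex libraries were stranded and CA1 libraries unstranded, per the labels' protocols.

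Spike-in entries (92 of 39109) were dropped. Counts were fitted within the neocortex with edgeR 4.0.16 in R 4.3.3 (filterByExpr, TMM, robust quasi-likelihood F-test, Benjamini-Hochberg adjustment over all genes, threshold 0.05). SE is the log2 change over the square root of F. The difference from CA1 was fitted over all 11 libraries. The labels do not state litters or batches, and p-values measure the spread between these mice. Alternatives were DESeq2 1.42.0, other size factors, filters on low counts, spike-in terms and scaling, leaving out each library, and the animal as a block. A chi-square per gene between libraries of 1 group of 9.99 to 18.7 showed no copied library. The model was tested on simulated counts.

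Of gene identifiers, 96.6% matched GENCODE M21, which gave coordinates, exon lengths and UTRs (1 transcript a gene). Reads total 43144097 to 58329441 per neocortex library. Genes were named by a rule, which took Dicer1 first. Among called genes of 1 CPM or more without overlap between the groups it took the largest changes, the smallest p-values and the highest levels. Lack of overlap in these genes is therefore part of the rule and no separate result. The rule also took up to 4 called genes (or the smallest p) per list, differences between tissues, and genes next to the threshold. Some genes that the rule names are not reported here. The members and the 75 gene lists were chosen with earlier results of these data known.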

Additional observations from a re-analysis of the deposited data

Results flagged for a closer look

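The genes below are among those picked out because the knockout effect in the neocortex differed from that in CA1 at an adjusted p under 0.05 in edgeR's test of the difference. Each value is the neocortex log2 change minus the CA1 log2 change. The kits differed between the tissues, and the part of this in the differences was not tested.

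Rasgrp1 differed by 0.593, Plxna4 by 0.547 and Arap2 by 0.468, all more positive in the neocortex. Shisa7, the auxiliary receptor subunit that rose in the neocortex, differed by 0.390 with an edgeR adjusted p of 0.0499, at the edge of the threshold, and of 0.0534 with the animal as a block. More positive in CA1 were Trh at -2.74, Igfbp2 at -1.046, Hap1 at -0.584 and Lamb2 at -0.562. Frzb, a secreted Wnt antagonist, was at -1.166, lower in the neocortex by 0.79 and with a CA1 change of 0.37. C1qc, a chain of complement C1q, was at -0.713, with rises of 0.33 in the neocortex and 1.04 in CA1.

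Both remaining genes were near 0 reads in a group, so no fold is given. Wnt1, a morphogen of the embryonic midbrain, had 0, 2 and 0 reads in neocortex controls and 12, 48 and 13 in knockouts, with D5132 highest, and in CA1 9, 10 and 14 reads in controls and 1 and 0 in knockouts. Its edgeR adjusted p of the difference was 0.036, and 0.0621 with the animal as a block, which ends the call. Sh3rf2, a ubiquitin ligase with SH3 domains, had 18, 16 and 18 reads in neocortex controls and 10, 14 and 20 in knockouts, against 0 in each of 3 CA1 controls and 20 and 10 in CA1 knockouts, with an edgeR adjusted p of 0.0313, and of 0.0711 with the animal as a block, which also ends the call.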

How the results depend on the processing

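Beside 256 higher and 204 lower genes, DESeq2 called 487 and 435, no filter on low counts 396 and 374, the share of spike-in reads as a term 705 and 501 (both libraries with a high share are controls), and the spike-in set as a term 122 and 69. Scaling to the spike-ins left 4 higher and 0 lower in edgeR, with 583 at an unadjusted p under 0.05. Leaving out 1 library gave 16 to 225 higher and 3 to 205 lower. The causes of these differences were not tested, and leaving out a library also leaves fewer samples. The 18 genes that differed between tissues became 159 with DESeq2, 114 with the animal as a replicate block and 1 to 31 without 1 library. No paired analysis was possible within the neocortex because knockout and control mice share no number. The spike-in set as a term, and the recounts of length and seed-site classes without 1 library, were chosen after seeing the data. Depth limits scarce genes: the median SE was 0.35 on the log2 scale for genes up to 1.61 CPM and 0.0563 for those above 69.7 CPM.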

Other observations

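Genes outside the neuronal and signalling lists also changed. Of the 256 higher and 204 lower genes, 245 and 199 were annotated as protein coding. Lcor, a transcriptional corepressor, had 2.51, 1.87 and 2.26 CPM in controls and 3.85, 4.44 and 4.09 CPM in knockouts, a log2 change of 0.89 ± 0.162 with an edgeR adjusted p of 0.0154. Stk35, a nuclear serine kinase, went from 40.2 ± 1.96 to 57.9 ± 4.85 CPM, and Sgcb, beta-sarcoglycan of the dystrophin complex, from 63.2 to 65.6 CPM in controls to 83 to 91.7 CPM in knockouts. Iars, the isoleucyl-tRNA synthetase, rose by 0.23 on the log2 scale as 1 of 20 synthetases, of which 5 had a positive change. Celf3, a neuronal splicing regulator, rose by 0.27 as 1 of 55 neuronal RNA-binding genes, of which 42 were positive, and 37 without D5134.

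Among genes that fell, Hlf, an output factor of the circadian clock, had 289, 272 and 315 CPM in controls and 245, 228 and 237 CPM in knockouts, a log2 change of -0.30 ± 0.059 with an edgeR adjusted p of 0.0214. It was 1 of 22 clock genes, of which 7 were positive. Crip2, a LIM domain protein, had 103, 103 and 111 CPM against 82.9, 79.7 and 80.4 CPM. The spread of either group of Crip2 was small beside the gap between them, at a log2 change of -0.39 ± 0.054. These calls, too, were lost without knockout D5133.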
